A study of Equus caballus with 20 samples.

Results

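Genes of cell junctions and cell adhesion were examined in epithelial cells of the mare oviduct. The members were 47 of the 26740 features in the expression table. They comprised all 17 rows for claudins (symbols that start with CLDN and a digit) and 30 of 32 listed genes of tight junctions, adherens junctions, desmosomes, integrins and epithelial identity. PATJ and NECTIN1 were not found under those symbols. The rule reads gene names and no measured value, and 38 members lay above 1 CPM (a read count scaled to the library total) in at least 5 libraries and were tested. The cells came from Warmblood mares 4 days after ovulation, at the place where the wide ampulla of the tube meets the narrow isthmus. Pregnant mares and cyclic mares, meaning mares that were not pregnant, gave cells of both oviducts, the one next to the ovulating ovary (ipsilateral) and the opposite one (contralateral). The 20 RNA-sequencing libraries form 4 groups of 5 biological replicates. These are called PI (pregnant, ipsilateral), PC (pregnant, contralateral), CI (cyclic, ipsilateral) and CC (cyclic, contralateral). All groups share the breed, the site and the day. The labels give neither the age of the mares nor whether libraries of the same number came from 1 mare, nor what was done with the cyclic mares before sampling.

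Epithelial cells are held together near their apical end by the tight junction, which seals the space between cells, by the adherens junction beneath it and by desmosomes, and integrins fasten their basal side to the basement membrane. Claudins build the tight junction strands and set which ions pass, occludin and its MARVEL domain relatives and junctional adhesion molecules sit in the same strands, and ZO scaffolds tie them to actin. In the oviduct this layer of multiciliated and secretory cells separates the fluid that bathes gametes and the early embryo from the maternal tissue.

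The libraries held 2795168 (PI1) to 10126484 (CI2) reads. Values are given as normalized counts, the authors' TMM-scaled read counts, in which 3 reads, the limit that a count of 0 allows, equal 1.75 to 7.03 depending on the library. These floors cover counting error only. A single feature took 14.4% of the reads of PI1, 27.8% of PI4 and 15.4% of CI3, and under 10% elsewhere. Of epithelial genes, KRT7 and the members CDH1 and EPCAM had reads in all 20 libraries, whereas KRT8, KRT18 and KRT19 were not found under those symbols. Reads of these genes alone do not check the epithelial label, since markers of other cells had reads as well. PAX8, a transcription factor of secretory cells, averaged 1687 to 2032 by group, and the oviduct glycoprotein gene OVGP1 was near the floor at 3.02 to 6.66. The summed level of 8 of 8 multiciliated markers was 51301 to 67518 normalized counts in PI, 51806 to 65683 in PC, 39861 to 55172 in CI and 38794 to 60852 in CC. Markers of other cells were also present: summed levels ran from 1394 to 6795 for stromal fibroblasts (9 of 9), 564 to 1969 for smooth muscle (5 of 6, MYLK not found) and 476 to 2834 for leukocytes (9 of 10, CD52 not found). Endothelial markers (6 of 6 apart from CLDN5, which was not found) summed to 317 to 1540.2. Mesothelial ones (5 of 5 found, 3 above the filter, CALB2 at 0 throughout) summed to 1561 to 3100.5, mostly from 1 gene. By group WT1 averaged 1744 to 2262 and UPK3B 98.3 to 157, while MSLN (0.69 to 2.04) and LRRN4 (2.36 to 7.95) were near the floor. This sum therefore does not show mesothelial cells. In such bulk samples, fewer cells of a type and less RNA per cell cannot be told apart.

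Libraries of 1 group differed in many junction genes at once. In every group 1 library was the lowest for a large share of the 38 tested members: PI1 for 19, PC1 for 23, CI3 for 25 and CC4 for 24, while the same libraries were the lowest of their group for 28.6%, 29.8%, 33.3% and 34.2% of all 14692 tested features. The highest value of a group stood most often in PI2 (22 members), PC4 (19), CI2 (18) and CC2 (19). These libraries were the highest of their group for 26.9%, 26.1%, 23.7% and 29.7% of all tested features. Over all features PC1 (27.7%) and CI3 (28.7%) were most often the highest of their groups, so these 2 libraries stood at both extremes. PI2, PC4, CI2 and CC2 were the deepest libraries of their groups, and PI1, CI3 and CC4 the shallowest. Other libraries did not follow depth. PC1, with 5781668 reads, was not the shallowest of its group. PI3, with 6529308 reads beside 6536856 in PI2, was the highest for 2 members. The median over members of the log2 level minus the gene's mean over 20 libraries ran from -0.33 in CI3 and -0.33 in CC4 to 0.33 in PC4 and 0.37 in CC2. It was 0.22 in CC1 with 4527135 reads and -0.22 in PI5 with 4936111. Over all tested features the same median stayed between -0.06 and 0.05. The part of depth in the members' levels was not tested, and differences with depth held in the fit are given below for a number of members.

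**Figure D1:**
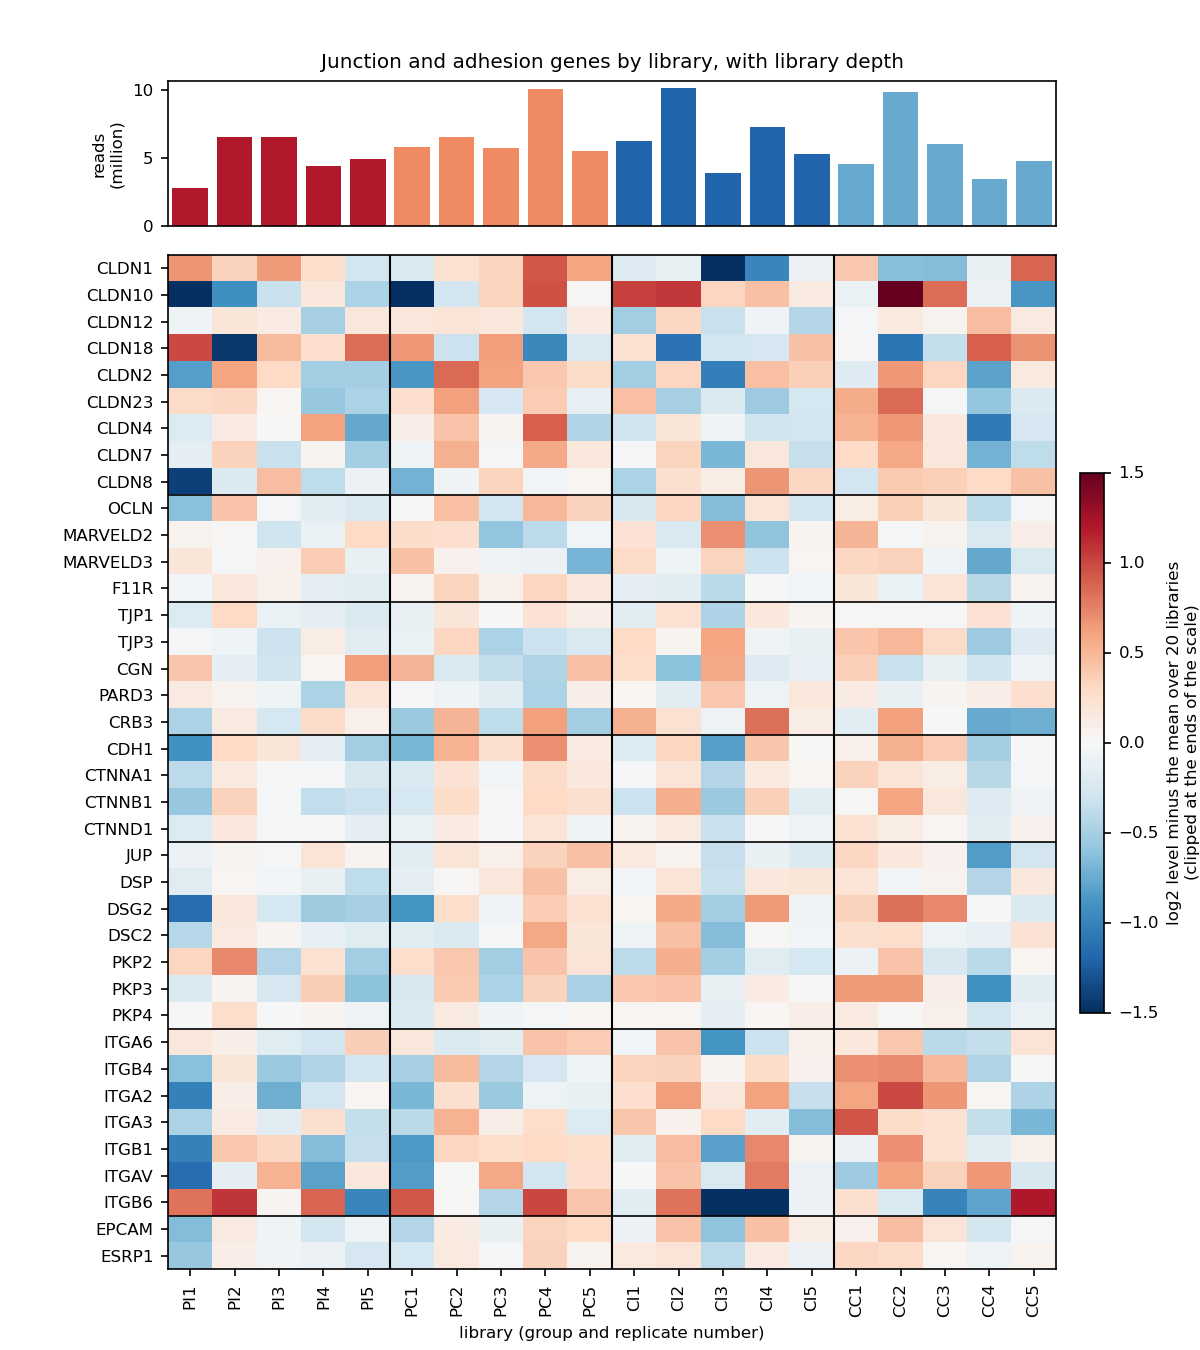
Log2 level of each of the 38 tested members minus the gene's mean over 20 libraries (color, clipped at the ends of the scale), with the reads of each library above; columns are libraries by group and replicate number, rows are genes ordered by role. Columns PI1, PC1, CI3 and CC4 are blue in many rows and PC4 and CC2 are red in many rows, while no row separates the 4 groups.

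**Figure D2:**
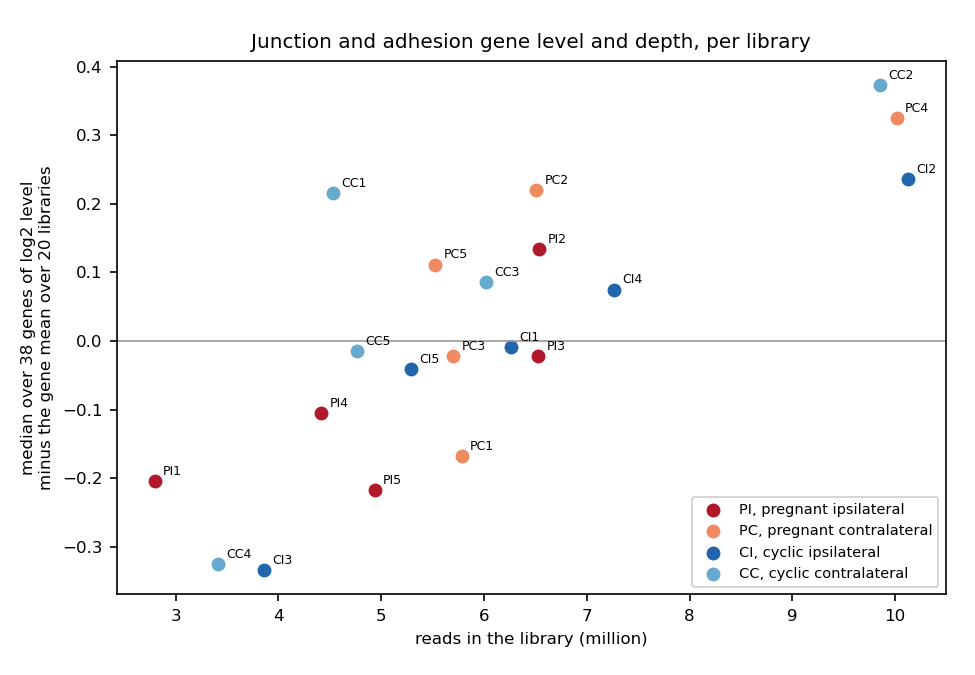
Reads per library (horizontal axis) against the median over 38 members of the log2 level minus the gene mean (vertical axis), 1 point per library, colored by group. The 3 deepest libraries (CI2, PC4 and CC2) lie at 0.24 to 0.37, and the 3 shallowest (PI1, CC4 and CI3) lie at -0.20 to -0.33. Libraries between them do not all follow depth: CC1 (4527135 reads) lies at 0.22, PI5 (4936111) at -0.22 and PC1 (5781668) at -0.17.

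By its title the series concerns the influence of the embryo on the oviduct, and the comparison of pregnant with cyclic mares on the ipsilateral side addresses it. No junction or adhesion gene passed the threshold there: 0 of 38 members and 0 of 14692 features (0.00%) had an adjusted p under 0.05 (limma, Benjamini-Hochberg). Without adjustment for the number of features, 5 of 38 members had a p under 0.05, beside 3.50% of all features (514). CLDN10, DSG2, ITGB4 and ITGA2 had lower means in PI, and CLDN1 a higher one. The edgeR quasi-likelihood test called 0 features and DESeq2 0 on the recovered reads, and both put the same 5 members under an unadjusted p of 0.05. The adjusted p of each member was 0.999. The median log2 difference (PI minus CI) was -0.07 over the members and -0.01 over all features, with 24 of 38 members lower beside 51.9% of features, and it was 0.05 with log2 reads as a covariate and 0.0002 without PI1. The number of members lower in PI was 18 (beside 49.2% of features) with log2 reads as a covariate, 20 (beside 53.2% of features) with the score of multiciliated markers and 27 (beside 60.3% of features) with CPM without TMM. In the contralateral oviduct, again 0 of 38 members and 0 of 14692 features (0.00%) passed, and ITGA2 alone was under an unadjusted p of 0.05, lower in PC, beside 4.55% of features (669). There edgeR called 0 features and DESeq2 12, none of them a member. The median there (PC minus CC) was 0.003 over the members and 0.01 over all features, with 18 of 38 members lower beside 48.2% of features. That number depended on the setting, at 10 (beside 47.5% of features) with the multiciliated score, 27 (beside 50.1% of features) with log2 reads and 24 (beside 60.4% of features) with CPM without TMM. For no member did the 5 pregnant and the 5 cyclic libraries of a side separate without overlap, beside 0.402% and 0.191% of features lower and higher without overlap on the ipsilateral side and 0.272% and 0.313% on the contralateral side.

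**Figure D3:**
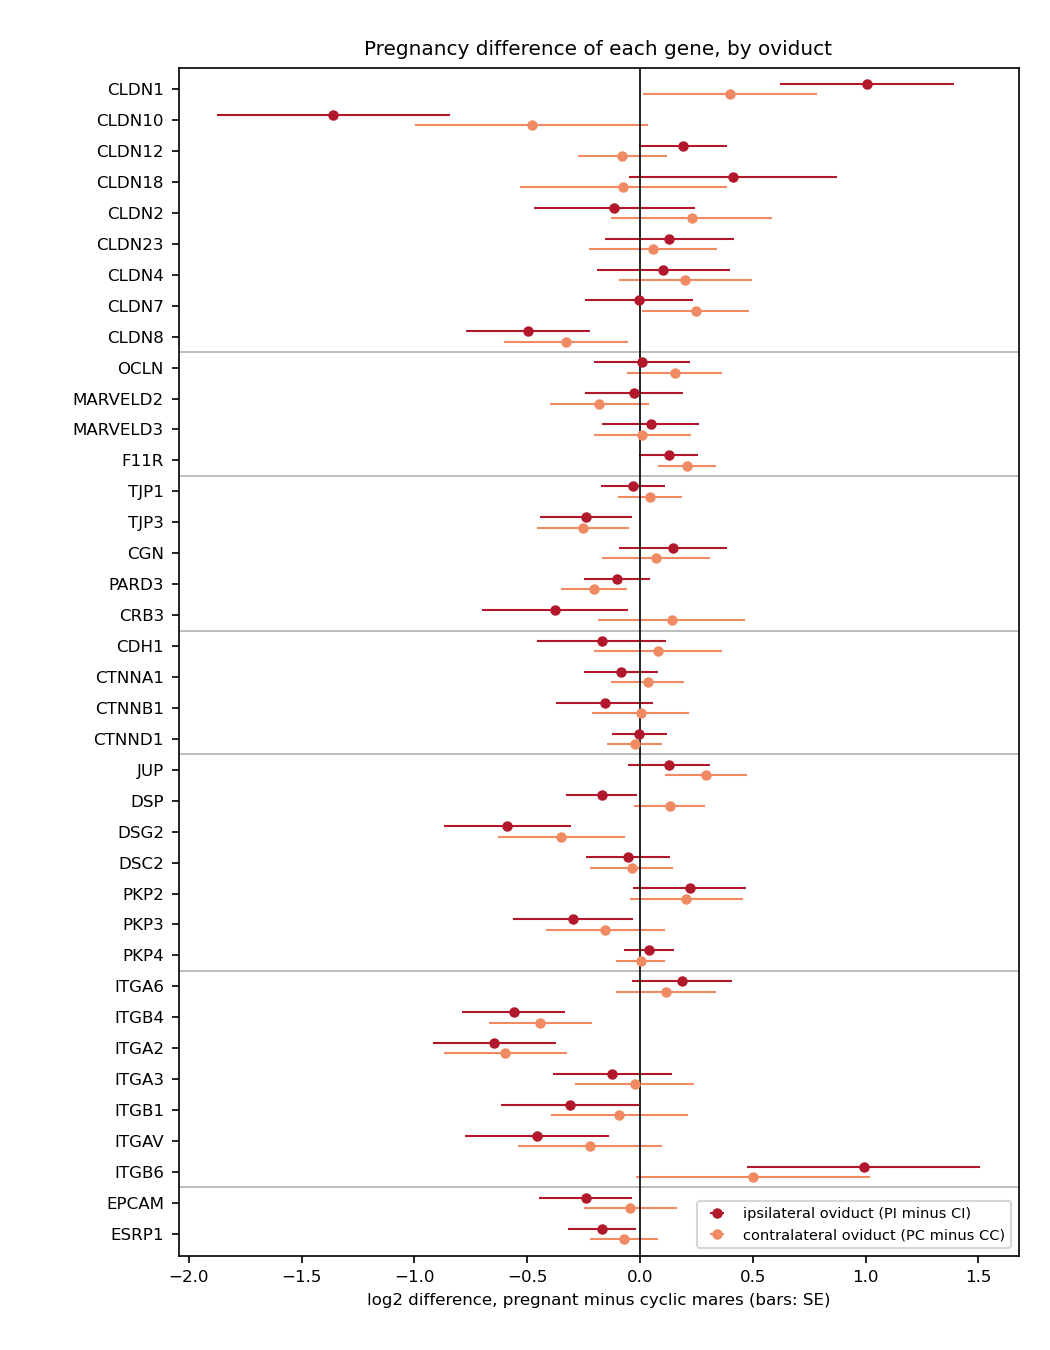
Log2 difference of pregnant minus cyclic mares for each tested member, in the ipsilateral (PI minus CI, dark red) and the contralateral oviduct (PC minus CC, orange); bars are standard errors from limma. CLDN10, DSG2, ITGB4, ITGA2 and CLDN1 lie farthest from 0 relative to their bars on the ipsilateral side, and 0 of 38 members passed the adjusted threshold on either side.

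Among the claudins, 9 of 17 were tested, and the lowest p belonged to CLDN10, which forms ion-selective pores. CLDN10 stood at 4.69, 16.5, 26.3, 38.6 and 23.6 normalized counts in PI1 to PI5, 7.54, 27.3, 43.7, 69.0 and 34.4 in PC1 to PC5, 72.4, 73.9, 43.2, 47.2 and 37.5 in CI1 to CI5 and 31.6, 128, 63.3, 31.7 and 17.2 in CC1 to CC5. The libraries CI1 to CI4 lay above every PI library, CI5 lay below PI4, and the value of PI1 rested on 2 reads. The log2 difference was -1.36 ± 0.52 (SE, n = 5 per group; adjusted p = 0.999, limma) ipsilaterally and -0.48 ± 0.52 contralaterally, where CC2 held the highest value. Contralaterally it was -0.07 without PC1 and -0.78 without CC5. With the multiciliated marker score as a covariate these became -0.72 and 0.43, so the contralateral one had the opposite sign. CLDN1, a barrier-forming claudin, was near the counting floor, at 16.4, 12.6, 16.1, 11.7 and 7.09 normalized counts in PI1 to PI5, 7.54, 11.3, 12.5, 20.5 and 15.5 in PC1 to PC5, 7.73, 8.35, 0, 3.20 and 8.57 in CI1 to CI5 and 13.2, 4.88, 4.80, 8.35 and 19.5 in CC1 to CC5. It was higher in PI than in CI by 1.00 ± 0.39 on the log2 scale (adjusted p = 0.999, limma), CI3 had no read of it, and PI5 lay inside the CI range. Without PI1, PI4 and CI3, the libraries with the dominant feature, the CLDN1 difference was 0.58, and without CI3 alone 0.67. It was 1.56 with a pseudocount of 0.1 CPM and 0.51 with 2 CPM, in place of 0.5 CPM.

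CLDN2, which forms cation pores in leaky epithelia, averaged 1715 ± 743, 2338 ± 856, 1860.0 ± 722 and 1959 ± 688 normalized counts in PI, PC, CI and CC (SD, n = 5), and the log2 difference was -0.11 ± 0.36 ipsilaterally and 0.23 ± 0.36 contralaterally. No pair of these group means lay farther apart than the smallest of the 4 SDs. CLDN4 (165 to 650.0 normalized counts over 20 libraries), CLDN7 (289 to 709.7) and CLDN8 (115 to 491), barrier claudins of many epithelia, differed by 0.10 ± 0.29, -0.01 ± 0.24 and -0.50 ± 0.27 on the ipsilateral side. The contralateral differences were 0.20 ± 0.29, 0.25 ± 0.24 and -0.33 ± 0.27. CLDN12, a claudin of broad expression, rested on 17 to 88 reads a library, at 39.8, 47.6, 45.8, 28.5 and 47.2 normalized counts in PI1 to PI5, 47.4, 48.1, 46.8, 33.9 and 45.5 in PC1 to PC5, 28.0, 52.5, 32.4, 40.0 and 30.0 in CI1 to CI5 and 40.8, 46.4, 43.2, 58.4 and 46.0 in CC1 to CC5, with differences of 0.19 ± 0.20 and -0.08 ± 0.20. The ranges of the 4 groups overlapped. CLDN18, known from gastric and lung epithelium, and CLDN23 spanned 8.75 to 60.9 and 21.7 to 63.5 normalized counts. CLDN18 differed by 0.41 ± 0.46 and -0.07 ± 0.46, and CLDN23 by 0.13 ± 0.29 and 0.06 ± 0.29.

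The other 8 claudins fell below the expression filter. CLDN16, CLDN17 and CLDN20 had 0 reads in all 20 libraries, which allows up to 3 reads in each. CLDN11, the claudin of Sertoli cells and myelin, had 56 reads in all and 0 in 7 libraries, and reached 18.2 normalized counts at most. CLDN14, CLDN15, CLDN19 and CLDN25 had 10, 9, 11 and 2 reads over the 20 libraries together. N-cadherin, CDH2, typical of mesenchymal and neural cells, was the only other member under the filter, with 42 reads in all and 0 in 8 libraries.

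The strand proteins other than claudins showed small differences. Occludin, OCLN, stood at 333, 693, 508, 461 and 442 normalized counts in PI1 to PI5, 517, 704, 424, 731 and 655 in PC1 to PC5, 436, 644, 328, 590.4 and 424 in CI1 to CI5 and 559, 661, 587, 391 and 510.3 in CC1 to CC5. PI1, CI3 and CC4 were the lowest of their groups and the ranges overlapped, and the differences were 0.01 ± 0.21 ipsilaterally and 0.15 ± 0.21 contralaterally. F11R, the junctional adhesion molecule JAM-A, varied little, at 977, 1129, 1062, 916 and 895 normalized counts in PI1 to PI5, 1044, 1267, 1061, 1259.6 and 1129 in PC1 to PC5, 915, 901, 758, 1009.6 and 979 in CI1 to CI5 and 1138, 942, 1148, 753 and 1046 in CC1 to CC5. It differed by 0.13 ± 0.13 and 0.21 ± 0.13, with overlapping groups on both sides. MARVELD2, tricellulin, found where 3 cells meet, averaged 196 ± 30.1, 186 ± 48.8, 206 ± 70.5 and 209 ± 42.1 normalized counts in PI, PC, CI and CC (SD, n = 5), and MARVELD3 averaged 180.2 ± 24.9, 164 ± 44.8, 175 ± 32.5 and 164 ± 48.2 normalized counts in PI, PC, CI and CC (SD, n = 5). Their differences lay between -0.18 and 0.05 on the 2 sides.

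The scaffold and polarity genes gave differences within the spread between replicates as well. TJP1, the scaffold ZO-1, was at 2090.1, 2976, 2246, 2189 and 2078 normalized counts in PI1 to PI5, 2229.6, 2735, 2407, 2799 and 2584 in PC1 to PC5, 2141, 2832, 1751, 2698 and 2471 in CI1 to CI5 and 2438, 2437, 2370.3, 2807 and 2299 in CC1 to CC5. PI2 stood above the other PI libraries and CC4 above the other CC libraries. Pregnant and cyclic mares differed in TJP1 by -0.03 ± 0.14 and 0.04 ± 0.14. TJP3, the scaffold ZO-3, averaged 109.6 ± 12.4, 105 ± 24.6, 132 ± 28.7 and 128 ± 37.1 normalized counts in PI, PC, CI and CC (SD, n = 5), with differences of -0.24 ± 0.20 and -0.25 ± 0.20. PARD3, a polarity protein that positions the tight junction, differed by -0.10 ± 0.15 and -0.20 ± 0.15 around levels of 588 to 1086, and CGN, the actomyosin linker cingulin, by 0.15 ± 0.24 and 0.07 ± 0.24 around 699 to 1654. CRB3, an apical polarity protein, was near the floor at 4.69, 8.75, 5.94, 10.1 and 8.27 normalized counts in PI1 to PI5, 4.31, 12.3, 5.20, 13.4 and 4.43 in PC1 to PC5, 12.6, 9.54, 7.20, 16.0 and 8.57 in CI1 to CI5 and 6.59, 13.4, 7.68, 3.34 and 3.45 in CC1 to CC5. Its differences of -0.37 ± 0.32 and 0.14 ± 0.32 rest on 2 to 23 reads a library. INADL, the older symbol of PATJ, was counted in a wider list and not as a member, and differed by 0.15 ± 0.13 and 0.10 ± 0.13.

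The adherens junction genes did not separate the groups. CDH1, E-cadherin, the calcium-dependent adhesion protein of epithelia, stood at 1509, 3482, 3217, 2562 and 1973 normalized counts in PI1 to PI5, 1758, 4061, 3364, 4576 and 3104 in PC1 to PC5, 2470.1, 3548, 1605, 3788 and 2882 in CI1 to CI5 and 2986, 4102, 3713, 1989 and 2861 in CC1 to CC5. The lowest CDH1 libraries were PI1, CI3 and PC1, and the ranges of the 4 groups overlapped. The log2 differences of CDH1 were -0.17 ± 0.29 and 0.08 ± 0.29, and with log2 reads as a covariate both had the opposite sign, 0.13 and -0.15. The catenins that connect E-cadherin to actin gave values near 0. CTNNA1 differed by -0.08 ± 0.16 and 0.03 ± 0.16, CTNNB1, also the Wnt effector, by -0.16 ± 0.22 and 0.003 ± 0.22, and CTNND1, p120 catenin, by -0.004 ± 0.12 and -0.02 ± 0.12. CTNNB1 averaged 3159 ± 829, 3819.9 ± 605, 3579 ± 1162 and 3839 ± 858 normalized counts in PI, PC, CI and CC (SD, n = 5). PVRL1, the older symbol of the nectin gene NECTIN1 and likewise no member, gave -0.37 ± 0.28 and -0.35 ± 0.28.

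Of the 7 desmosome genes, DSG2 alone was under an unadjusted p of 0.05, in the ipsilateral comparison. DSG2, desmoglein 2, a desmosomal cadherin, stood at 445, 1107, 827, 681 and 703 normalized counts in PI1 to PI5, 529.7, 1193, 951, 1294 and 1164 in PC1 to PC5, 1010.1, 1470.0, 695, 1549 and 945 in CI1 to CI5 and 1258, 1760.4, 1635, 985 and 853 in CC1 to CC5. PI2, PI3 and PI5 lay inside the CI range, and CI1, CI3 and CI5 inside the PI range. PI2 held the highest PI value and CI3 the lowest CI value, and the 2 groups overlapped. The log2 difference of DSG2 was -0.59 ± 0.28 (adjusted p = 0.999, limma) ipsilaterally and -0.35 ± 0.28 contralaterally. The difference between the 2 sides, the interaction, was -0.24 ± 0.40, and 0.26 with log2 reads as a covariate. With that covariate DSG2 differed by -0.31 ipsilaterally and -0.57 contralaterally, and without PC1 the contralateral difference was -0.13. JUP, plakoglobin, shared by desmosomes and adherens junctions, was at 2556, 2779, 2669, 3105 and 2778 normalized counts in PI1 to PI5, 2425, 3089, 2856, 3443 and 3668 in PC1 to PC5, 2999, 2804, 2138, 2513 and 2322 in CI1 to CI5 and 3368, 3024, 2835, 1509.6 and 2241 in CC1 to CC5, and CC4 was the lowest library. The JUP differences were 0.13 ± 0.18 and 0.29 ± 0.18. DSP, desmoplakin, which anchors keratin filaments, was at 8918, 10344, 9839.8, 9359 and 7753 normalized counts in PI1 to PI5, 9115, 10266, 11399, 13738 and 10887 in PC1 to PC5, 9817, 11576, 8031, 11322 and 11478 in CI1 to CI5 and 11617, 9825, 10499, 7451 and 11331 in CC1 to CC5. The groups of DSP overlapped, with differences of -0.17 ± 0.16 and 0.13 ± 0.16. The plakophilins PKP2, PKP3 and PKP4, which cluster desmosomal cadherins or bind at junctions, differed ipsilaterally by 0.22 ± 0.25, -0.30 ± 0.26 and 0.04 ± 0.11, and desmocollin 2, DSC2, by -0.05 ± 0.18. Contralaterally, these 4 values were 0.21 ± 0.25, -0.15 ± 0.26, 0.003 ± 0.11 and -0.04 ± 0.18.

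Among the 7 integrins, the same 5 had lower means in pregnant mares on each side (ITGB4, ITGA2, ITGB1, ITGA3 and ITGAV). Each side taken alone, 51.9% of features were lower ipsilaterally and 48.2% contralaterally. The share of features lower on both sides was not computed. With the multiciliated score as a covariate 4 of 7 integrins were lower ipsilaterally (beside 53.2% of features) and 3 of 7 contralaterally (beside 47.5%). Of the 7, 0 passed the adjusted threshold, and ITGB4 and ITGA2 had the lowest p on each side. ITGB4, the beta 4 subunit that builds hemidesmosomes on laminin, stood at 8813, 15493, 9284, 9941 and 11219.8 normalized counts in PI1 to PI5, 9628, 18953, 10062, 11461 and 13064 in PC1 to PC5, 17132, 17364, 14051, 16448 and 14288 in CI1 to CI5 and 21844, 22201, 19138, 9959.6 and 13721 in CC1 to CC5. Of the PI libraries 4 lay below every CI library, and PI2 lay among the CI values. In the contralateral oviduct CC4 and CC5 lay inside the PC range, while CC1, CC2 and CC3 exceeded every PC library. The log2 difference of ITGB4 was -0.56 ± 0.23 (adjusted p = 0.999, limma) ipsilaterally and -0.44 ± 0.23 (adjusted p = 0.9998, limma) contralaterally. ITGA2, the alpha 2 subunit of a collagen receptor, stood at 309, 675, 378, 515 and 641 normalized counts in PI1 to PI5, 389.7, 743, 428, 599 and 583 in PC1 to PC5, 753, 973, 708, 960.0 and 495 in CI1 to CI5 and 949, 1249.7, 996, 641 and 456 in CC1 to CC5. CI5 lay inside the PI range and CI1 to CI4 lay above every PI library, and on the other side CC4 and CC5 lay inside the PC range. The log2 difference of ITGA2 was -0.65 ± 0.27 (adjusted p = 0.999, limma) and -0.60 ± 0.27 (adjusted p = 0.9998, limma).

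Of the other integrin subunits, ITGA6, the partner of ITGB4 in hemidesmosomes, averaged 1069 ± 195, 1137 ± 236, 969.6 ± 311 and 1057 ± 255 normalized counts in PI, PC, CI and CC (SD, n = 5), with differences of 0.19 ± 0.22 and 0.11 ± 0.22. ITGB1, the common beta subunit, differed by -0.31 ± 0.31 and -0.09 ± 0.31. ITGA3, a laminin receptor subunit, differed by -0.12 ± 0.26 and -0.02 ± 0.26, and ITGAV, which pairs with several beta subunits, by -0.46 ± 0.32 and -0.22 ± 0.32. ITGB6, which with ITGAV activates latent TGF-beta, ranged from 19.8 to 188 normalized counts over the 20 libraries, with differences of 0.99 ± 0.52 and 0.50 ± 0.52. Its groups overlapped on both sides.

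EPCAM, the epithelial cell adhesion molecule, stood at 1115, 1916, 1682, 1451 and 1671 normalized counts in PI1 to PI5, 1293, 1915, 1622, 2202 and 2157 in PC1 to PC5, 1651, 2348, 1154, 2382 and 1890.2 in CI1 to CI5 and 1831, 2413, 2007, 1444 and 1725 in CC1 to CC5. Its differences were -0.24 ± 0.21 and -0.04 ± 0.21, and the ranges of the 4 groups overlapped. ESRP1, a splicing factor that maintains epithelial isoforms, differed by -0.17 ± 0.15 and -0.07 ± 0.15 around 572 to 1073 normalized counts.

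**Figure D4:**
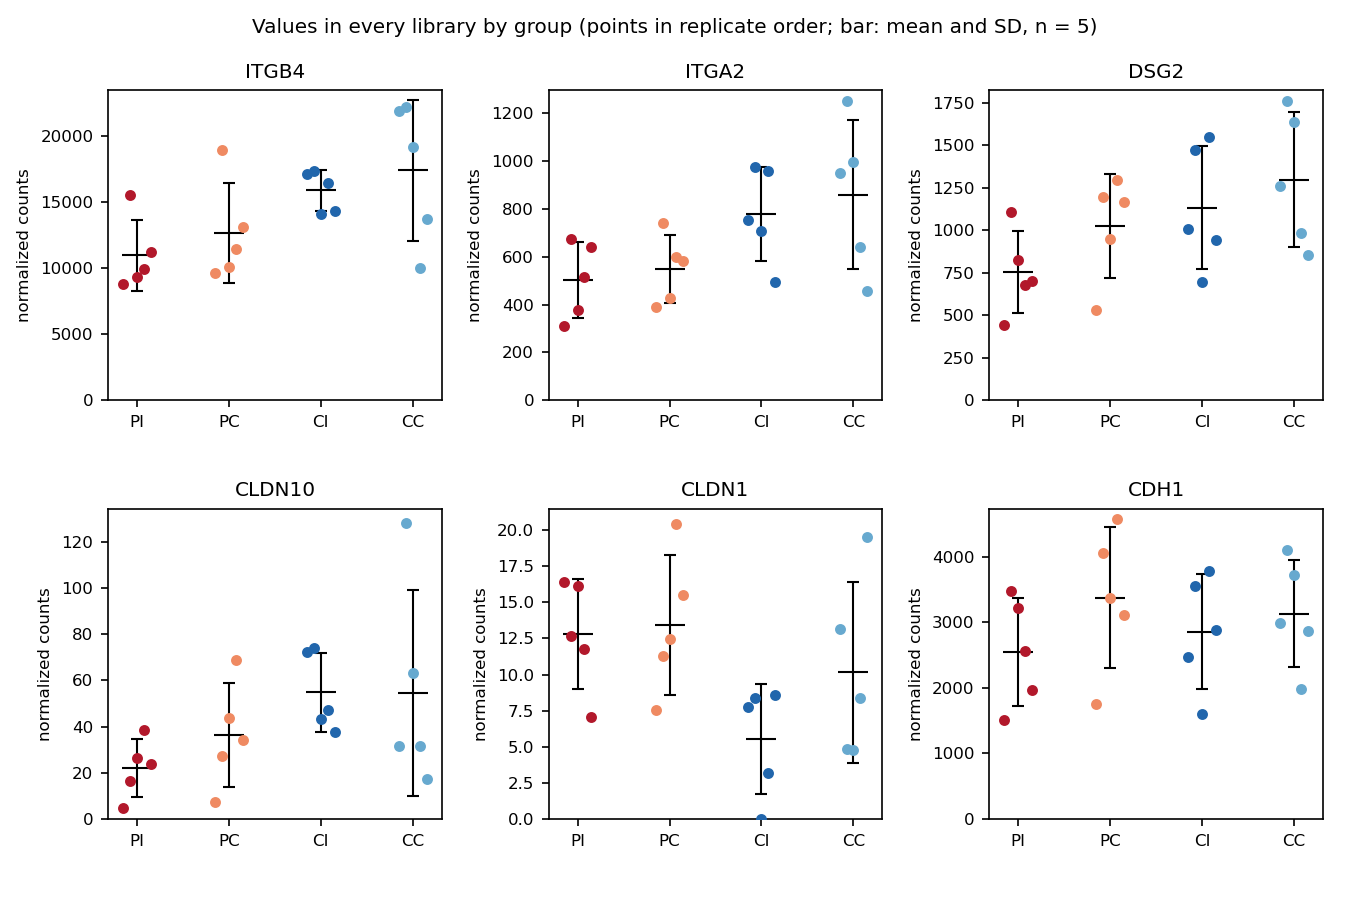
Normalized counts in every library (points in replicate order) for ITGB4, ITGA2, DSG2, CLDN10, CLDN1 and CDH1, by group, with the mean and SD (n = 5); axes start at 0. In each panel at least 1 library of every group lies within the range of another group. PI1 and PC1 are the lowest of their groups for ITGB4, ITGA2, DSG2, CLDN10 and CDH1.

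Cell markers and depth also differed between the groups compared. The multiciliated markers, all 8 of 8 detected, summed to more in pregnant than in cyclic mares on average, 57635 in PI and 57501 in PC against 47729 in CI and 47978 in CC, with the ranges given above. With their score as a covariate, the number of members under an unadjusted p of 0.05 ipsilaterally went from 5 to 0 and contralaterally from 1 to 2 (JUP at 0.51 and ITGA3 at 0.59, both higher in PC). ITGA2 went to -0.25 and -0.04, ITGB4 to -0.35 and -0.14, DSG2 to -0.36 and -0.03, and CLDN1 to 0.75 and 0.03 on the 2 sides. With log2 reads as a covariate the ipsilateral count was 2 (CLDN10 at -0.92 and CLDN1 at 1.06), and contralaterally it was 3 in place of 1 (DSG2, ITGB4 and ITGA2). ITGB4 was at -0.42 and -0.55 there, and ITGA2 at -0.44 and -0.76. OCLN was at 0.23 and -0.02, EPCAM at -0.03 and -0.20, and CRB3 at -0.14 and -0.05. Without PI1, PI4 and CI3 it was 1 ipsilaterally, CLDN10 at -1.24, with ITGB4 at -0.47, ITGA2 at -0.49 and DSG2 at -0.49. Without PI1 alone it was also 1 (CLDN1), without CI4 it was 3, and with genes above 5 CPM only it was 3. The contralateral count of 1 became 0 without PC1, PC3, CC2 or CC3, 2 without PC2 and 3 without CC4, and 0 with a leukocyte or a stromal and smooth muscle score as covariate. Without CC1 it stayed 1, but the member was JUP at 0.40 (higher in PC) and not ITGA2. What part cell makeup or depth has in these differences was not tested.

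Beyond the members, 5 wider lists of junction and adhesion genes were read from the same fit. Of 112 listed genes, 104 were found and 100 tested, and 0 passed in either pregnancy comparison. Ipsilaterally 46 were higher and 54 lower in pregnant mares, beside 51.9% of all features lower. Under an unadjusted p of 0.05 were 1 and 6 of these 100, beside 3.50% of features, and the median was -0.03. Contralaterally 46 were higher and 54 lower, beside 48.2% of features lower. Of these 0 and 4 were under 0.05, a share near the 4.55% of all features, and the median was -0.02. Among other tight junction and polarity genes (29 tested), MAGI2, a membrane scaffold, differed by 0.98 ± 0.32 and 0.32 ± 0.32, and CGNL1, paracingulin, by -0.51 ± 0.19 and -0.33 ± 0.19. In the adherens junction and nectin list (20 tested), the cadherin CDH6 differed by -0.84 ± 0.34 and -0.83 ± 0.34, and P-cadherin, CDH3, by -0.90 ± 0.42 and -0.84 ± 0.42. CDH6 averaged 515 ± 232, 512 ± 151, 934 ± 372 and 924 ± 329 normalized counts in PI, PC, CI and CC (SD, n = 5), and these groups overlapped. Among basement membrane and desmosome genes (17 tested), LAMB1, a laminin chain, averaged 246 ± 115, 250.3 ± 89.5, 482 ± 166 and 557 ± 262 normalized counts in PI, PC, CI and CC (SD, n = 5), with a contralateral difference of -1.04 ± 0.39. LAMB3, a chain of the hemidesmosome ligand laminin-332, differed by -0.44 ± 0.21 and -0.27 ± 0.21. Of the integrin and focal adhesion genes (22 tested), PARVA, a linker to actin, gave -0.27 ± 0.12 and -0.14 ± 0.12, and ITGA1 gave 0.39 ± 0.31 and 0.60 ± 0.31. The epithelial identity regulators (12 tested) EHF and GRHL2 gave -0.36 ± 0.19 and 0.27 ± 0.17 ipsilaterally and -0.22 ± 0.19 and 0.04 ± 0.17 contralaterally. The adjusted p of each of these 10 genes was 0.999 or above (limma).

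In pregnant mares the oviduct of the ovulation side was compared with the opposite one, which shares the PI libraries with the ipsilateral pregnancy comparison. Again 0 of 38 members and 0 of 14692 features (0.00%) passed (adjusted p of the members 0.9986 to 0.9994, limma), and 0 members lay under an unadjusted p of 0.05, beside 0.762% of features (112). The edgeR and DESeq2 tests also called 0 features. The 2 groups overlapped for each of the 38 members, beside 0.0885% of features lower and 0.0476% higher without overlap. Of the 38 members, 30 had a lower mean on the ipsilateral side, beside 55.4% of all features, with a median of -0.18 against -0.03 over all features. The members with the lowest p were F11R at -0.21 ± 0.13, DSP at -0.26 ± 0.16 and DSG2 at -0.44 ± 0.28. By role, 7 of 7 integrins and 4 of 4 tested adherens junction genes had lower means (medians -0.19 and -0.24) and 1 of 5 scaffold and polarity genes (median 0.07). With edgeR, DESeq2 or CPM without the most abundant feature 6 of 7 integrins were lower, with log2 reads as a covariate 3 of 7, and without PI1, PI4 and CI3 4 of 7. CDH1 differed by -0.40 ± 0.29, OCLN by -0.32 ± 0.21 and EPCAM by -0.23 ± 0.21. PI libraries were shallower than PC ones in 3 of 5 numbers. With log2 reads as a covariate the median over members went to -0.03, the count of lower members to 24 (beside 51.8% of features) and CDH1 to -0.05. F11R went to -0.14, DSP to -0.15, DSG2 to -0.11, OCLN to -0.06 and EPCAM to 0.02. The median was -0.11 without PI1 and -0.09 without PI1, PI4 and CI3. Under an unadjusted p of 0.05 there was 1 member without PI2 and 4 without PC1.

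Libraries of the same number could be set side by side in the pregnant mares, since their profiles deviated together (correlations of 0.53 to 0.70 between the 2 libraries of a number). PI2 and CI2, of different status, also correlated at 0.59. Of the 38 members, 9 were lower ipsilaterally in all 5 pairs (CLDN10, CLDN4, CLDN7, CDH1, DSG2, ITGB4, ITGA3, ITGAV and ESRP1), 23.7% beside 7.57% of all features. PARD3 was higher in all 5, 2.63% beside 4.88%. The number of members lower on the ipsilateral side was 27, 24, 18, 30 and 29 of 38 in pairs 1 to 5, beside 54.7, 50.3, 52.3, 56.2 and 52.8% of all features. As shares these were 71.1, 63.2, 47.4, 78.9 and 76.3%, with median log2 differences of -0.11, -0.10, 0.01, -0.34 and -0.32 over members. Over all features the medians lay between -0.07 and -0.003. In pair 2 the depths were close (6536856 and 6510221 reads), and in pair 3 the ipsilateral library was the deeper one. The ipsilateral library had 2795168 reads against 5781668 in pair 1, 4415169 against 10015464 in pair 4 and 4936111 against 5522831 in pair 5. The part of depth in these pair differences was not tested. The ITGB4 values given above were lower ipsilaterally in each pair although the 2 groups overlap. With the number as a fixed block, CLDN10 (PI minus PC -0.61) had an adjusted p of 0.822 (limma), so the block changed no call.

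**Figure D5:**
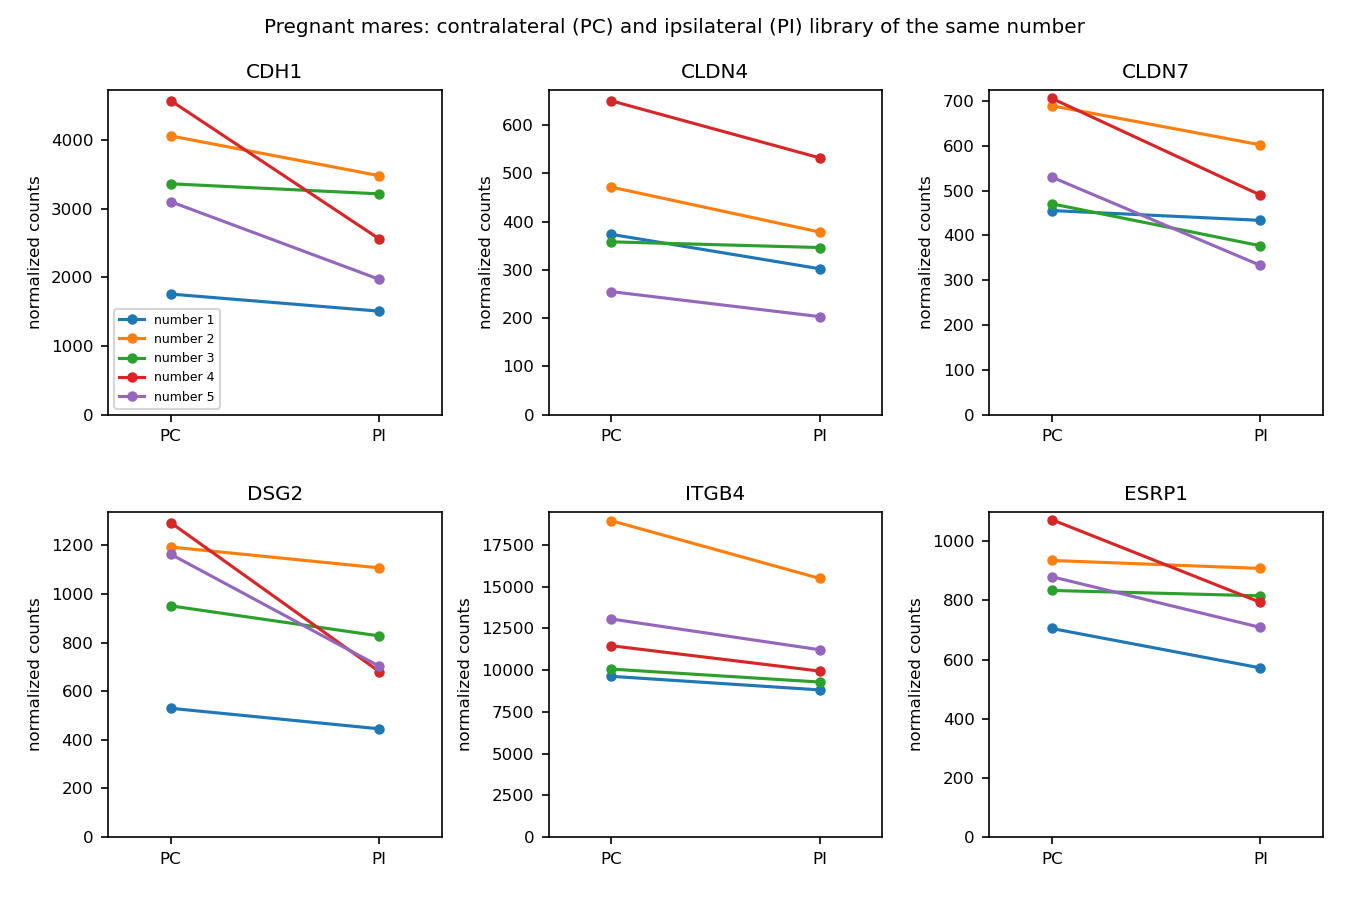
Normalized counts of CDH1, CLDN4, CLDN7, DSG2, ITGB4 and ESRP1, 6 of the 9 members lower in PI in all 5 pairs, in the contralateral (PC) and ipsilateral (PI) library of the same number; each line is 1 number. All lines go down from PC to PI, by little in pair 3 for CDH1 and CLDN4 and steeply in pair 4 for CDH1 and DSG2.

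In cyclic mares, 0 of 38 members and 0 of 14692 features (0.00%) passed in the comparison of sides, and 0 members were under an unadjusted p of 0.05, beside 0.286% of features (42). The edgeR and DESeq2 tests called 0 features. The groups overlapped for each of the 38 members, beside 0.0408% of features lower and 0.0272% higher without overlap. Of the members, 28 of 38 had lower ipsilateral means, beside 48.6% of features, with a median of -0.09 against 0.01. The number was 34 (beside 67.2% of features) with CPM without TMM and 22 (beside 45.5% of features) without PI1, PI4 and CI3. With log2 reads as a covariate it was 29 (beside 51% of features). CLDN12 had the lowest p, at -0.36 ± 0.20, followed by CLDN1 at -0.65 ± 0.39 and CRB3 at 0.53 ± 0.32. All 3 are genes of few reads, with an adjusted p of 0.99995 (limma). The median over members was -0.02 without CI3, -0.02 without CC2 and -0.18 without CC4, and leaving out CI2 or CC2 put 1 member under an unadjusted p of 0.05, as did log2 reads as a covariate (OCLN at -0.31). Members were lower in the ipsilateral library of the same number in 34, 28, 31, 7 and 19 of 38 cases for numbers 1 to 5. The shares of all features were 49.5, 52.5, 53.6, 46.7 and 51.0%. Number 4 sets CI4 against CC4, the shallowest CC library, and number 1 sets CI1 with 6263152 reads against CC1 with 4527135. These numbers did not pair the cyclic libraries as they did the pregnant ones.

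The interaction asks whether the pregnancy difference is the same in the ipsilateral and the contralateral oviduct. It passed for 0 of 38 members and 0 of 14692 features (0.00%), and 0 members were under an unadjusted p of 0.05, beside 0.320% of features (47), and edgeR and DESeq2 called 0 features. The lowest p values belonged to DSP at -0.30 ± 0.22, CLDN10 at -0.88 ± 0.73 and CRB3 at -0.51 ± 0.46. With log2 reads as a covariate these were -0.15, -0.11 and -0.09. A negative value means that PI minus CI was the lower of the 2 pregnancy differences. Of the members 24 of 38 were negative, beside 56.6% of features, and with log2 reads as a covariate the number was 7 (beside 49.1% of features). Over the members the median was -0.10 and over all features -0.04, and with log2 reads as a covariate the member median had the opposite sign, 0.14, as it had without CC4 (0.03). ITGA2 and ITGB4 had interactions of -0.05 ± 0.38 and -0.12 ± 0.32, and with log2 reads as a covariate 0.32 and 0.14.

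Members also differed in how much they varied between replicates. The residual SD on the log2 scale had a median of 0.38 over the members and 0.40 over all features. It was lowest for PKP4 (0.13), CTNND1 (0.15), F11R (0.18) and TJP1 (0.20). It was highest for ITGB6 (0.91), CLDN10 (0.89), CLDN18 (0.78), CLDN2 (0.62) and CLDN1 (0.61). CLDN1 rested on 0 to 35 reads a library, whereas CLDN2 had at least 438 reads in each.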

How the data were processed

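The members and gene lists were chosen with earlier results of these data known, although the rule itself uses gene names alone. The deposited values are the authors' TMM-normalized counts, a signal equal to reads times 1 factor per library, and since all values were whole multiples of the smallest one, whole reads were recovered (100% within 0.01 reads). The submitters' processing notes name CASAVA 1.8; the aligner, counter, strand setting, build and annotation are, like any counting option, not given in the sources used here, so overlapping and antisense genes and near-identical copies are uncertain and levels are not compared between genes. Per the labels' protocols, a stranded total RNA kit with depletion of ribosomal RNA was used, whereas the molecule is labelled polyA RNA. Counts were compared between libraries of the same group and between the ipsilateral and contralateral library of the same number and status. Each of these pairs differed beyond sampling noise (chi-square divided by its degrees of freedom 4.93 to 199.9).

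Features above 1 CPM in at least 5 libraries (14692 of 26740) were fitted with limma 3.58.1 (R 4.3.3; trend, robust, 2-sided) on log2 of the value plus 3.03 normalized counts (0.5 CPM), with 4 group means over 20 libraries, and all p-values were adjusted by Benjamini-Hochberg at 0.05. This scale understates folds of genes with low values. The fit was tested on simulated data. Alternatives used edgeR 4.0.16 and DESeq2 1.42.0 on recovered reads, other filters, pseudocounts and scalings, library weights, covariates, a replicate block and single libraries left out. Members given in full are the 3 with the lowest p in each comparison and CDH1, EPCAM, TJP1 and OCLN; from each wider list the 2 genes with the lowest p over both pregnancy comparisons are named.

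Replicate numbers come from the titles. Deviations from the group means correlated at 0.70, 0.60, 0.53, 0.64 and 0.59 between PI and PC libraries of numbers 1 to 5, so these were taken as pairs. The labels do not say that a number marks a mare. Number 2 also correlated between pregnant and cyclic mares, at 0.59 for PI2 with CI2 and 0.49 for PC2 with CC2. The other numbers gave -0.40 to 0.12 there. A correlation of this size is thus not particular to the PI and PC pairs. Between CI and CC the values were 0.29, 0.68, 0.02, -0.04 and 0.62. If 2 libraries come from 1 mare, the p-values of the unblocked fit do not take that into account.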

Additional observations from a re-analysis of the deposited data

Results flagged for a closer look

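Of 56 groups of 5 libraries examined (14 members in 4 groups), 3 held 1 library far from the other 4, and chance flags about 1 in 20 groups. TJP1, the ZO-1 scaffold gene, was high in PI2 at 2976 normalized counts, and it was high in CC4 at 2807. CLDN12 was low in PC4 at 33.9.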

How the results depend on the processing

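Of 37 alternative settings, giving 182 fits by comparison, 0 called a member; the smallest adjusted p of a member was 0.308 (contralateral pregnancy comparison, library weights). The number of features called was 0 and became 1 in the ipsilateral pregnancy comparison with the multiciliated score as covariate, and in the contralateral one 1 with CPM without TMM, 12 with DESeq2, 6 with library weights and 1 with log2 reads as covariate. With log2 reads as covariate the member median of the interaction went from -0.10 to 0.14; the cause of these shifts was not tested. In the other 540 recomputed values, counts of calls (features and members) stayed at 0 and member medians stayed within 1 SD of the member score (0.207). That SD is larger than every reported member median, so a median could change sign within it. The ipsilateral pregnancy median did so, from -0.07 to 0.05 with log2 reads as covariate. The counts of members under an unadjusted p of 0.05 are not among these 540. They ranged from 0 to 6 ipsilaterally (5 as reported) and from 0 to 4 contralaterally (1 as reported). Of 2538 recomputed differences of the 14 members given in full, 118 changed sign, all without a call. With the replicate number as a fixed replicate block, CLDN10 was at -0.61 between sides in pregnant mares (adjusted p = 0.822, limma), and 1 member each came under an unadjusted p of 0.05 there (CLDN10), in the interaction (CLDN10) and between sides in cyclic mares (CLDN12). With a random block (correlation 0.39) CLDN1 and CLDN12 did so in cyclic mares, and with it, as with the fixed one, no call changed, and pairing added no called feature. Library weights put TJP3, DSG2, ITGB4 and ITGA2 under an unadjusted p of 0.05 contralaterally. Depth limits the precision of genes with few reads (CLDN1, CRB3) and of the shallowest libraries (PI1, CI3, CC4).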
